A study of Saccharomyces cerevisiae with 18 samples.

Results

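Nascent transcription was compared between 2 untreated degron strains of S. cerevisiae, Med16/Spt20-AID and Spt20-AID, in 6 of the 18 libraries of the series. The libraries were chosen by their labels, as the DMSO-treated cultures of those strains, with 3 biological replicates of each, and their files carry the same sequencing run number. Newly made RNA was marked with 4-thiouracil for 6 min after 30 min in DMSO, and is referred to as nsRNA. Both strains are haploid MATa cells of the W303 background, grown in rich glucose medium, and carry a pGPD1-OsTIR1 transgene at leu2 together with the W303 auxotrophies ade2-1, can1-100, his3-11,15, trp1-1 and ura3-1. In both strains, SPT20 ends in 3xHA and the IAA7 degron, followed by a HIS3 marker. The Med16/Spt20-AID strain differs in the labels by a further 3V5-IAA7 tag on Med16 with the kanMX6 marker. No 3-IAA was present, so neither protein was being degraded by added auxin, but OsTIR1 was expressed throughout. Each strain is 1 genotype, and the second tag, its marker and any other difference between the strains cannot be told apart.

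Mediator is the large coactivator that links activators bound upstream of a gene to RNA polymerase II. Its tail module, which includes Med16 (encoded by SIN4 in the annotation), contacts activators, and Med16 joins the tail to the rest of Mediator. Spt20 is a structural subunit of SAGA, a coactivator that delivers TATA-binding protein and modifies chromatin. Auxin-inducible degrons recruit a ubiquitin ligase through OsTIR1 once auxin is added, and such tags can in some cases lower a protein's level or function without auxin. Protein levels were not analysed here.

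The libraries held 3112233 to 4426449 sense reads on genes for Spt20-AID and 4209319 to 6189719 for Med16/Spt20-AID. Levels are given as CPM, the sense counts scaled to the library size after TMM normalization, which sets the bulk of genes equal between libraries. Log2 levels correlated at 0.990 to 0.995 between replicates of a strain and at 0.957 to 0.977 between strains, as a description across genes. The share of reads that did not map to the yeast genome was 28.6 to 34.0% in Spt20-AID and 21.8 to 23.2% in Med16/Spt20-AID. By the study's S. pombe spike-in, which was mixed in by optical density, the median gene was higher in Med16/Spt20-AID. The median log2 spike-in normalized count was 7.90 ± 0.175 for Spt20-AID and 8.92 ± 0.110 for Med16/Spt20-AID (SD, n = 3), a 2.03-fold difference with no overlap (exact permutation, two-sided, p = 0.1, which is the smallest p that 3 against 3 allows). The share of this shift that comes from mixing was not tested. In what follows, higher and lower are therefore relative to the median gene. Spike-in scaling took the median log2 fold change of all genes from 0.014 to 1.01.

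Among 5621 genes that averaged 10 or more counts, 2834 differed between the strains (50.4% at an adjusted p-value under 0.05), 1392 higher in Med16/Spt20-AID (24.8%) and 1442 lower (25.7%). Most differences were small. Changes of at least 2-fold were called for 142 genes in the higher direction (2.53%) and 74 in the lower direction (1.32%). Levels in the 3 libraries of each strain did not overlap for 3210 genes (57.1%). With spike-in scaling, 5251 genes were higher (93.4%) and 17 were lower (0.302%). Longer genes tended to be higher, with 745 higher and 297 lower among genes in the longest tertile and 250 higher and 577 lower among those in the shortest. Removing trends with length and GC content kept 2388 of the calls in the same direction.

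**Figure D1:**
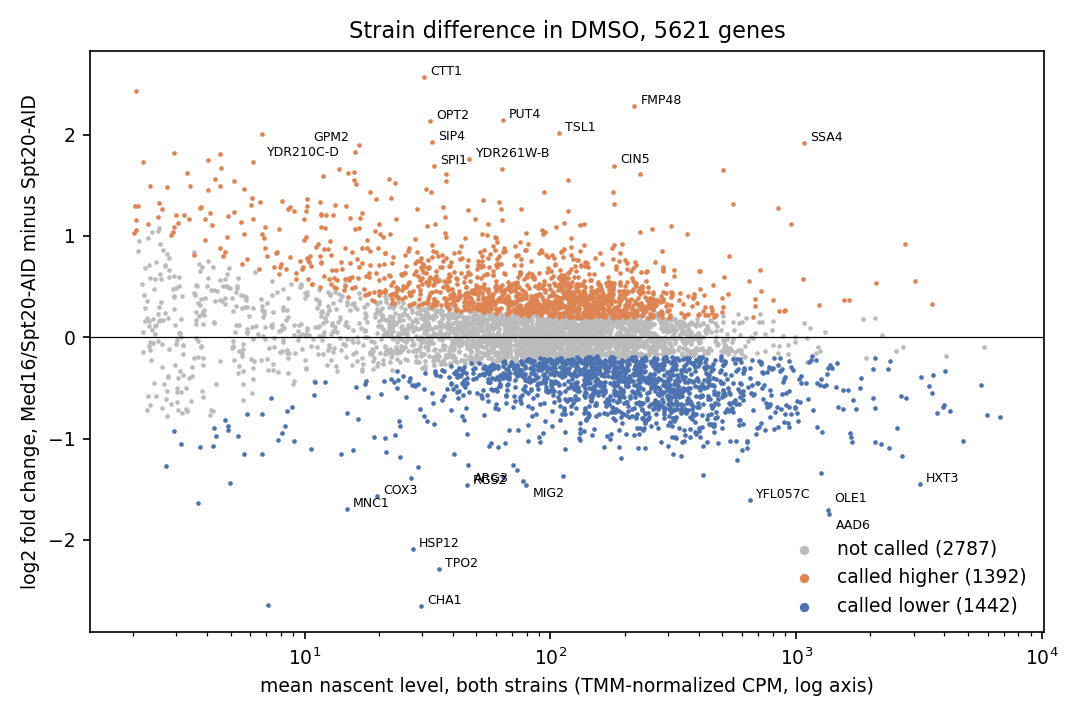
Log2 fold change between Med16/Spt20-AID and Spt20-AID in DMSO (y axis, relative to the median gene) against the mean level of both strains in TMM-normalized CPM (x axis, log scale), 1 point per tested gene. Points in orange (1392) and blue (1442) passed an adjusted p of 0.05, and the 24 labelled genes are the largest increases and decreases among genes that averaged 50 counts or more.

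The tagged genes themselves differed little between the strains. MED16, at chrXIV:206930-209854 on the plus strand of R64, was at 141, 178 and 181 CPM in Spt20-AID, where it is untagged, and at 176, 191 and 196 CPM in Med16/Spt20-AID. These ranges overlapped, and the log2 fold change of 0.17 did not pass the test (SE 0.0938, adjusted p = 0.131). SPT20, at chrXV:45760-47574 on the minus strand and tagged in both strains, was at 102, 116 and 131 CPM in Spt20-AID and at 146, 144 and 133 CPM in Med16/Spt20-AID. The groups did not overlap, and the log2 fold change of 0.27 passed narrowly (adjusted p = 0.0199), but the call was lost without Spt20-AID replicate 1 (0.18, adjusted p = 0.113) and without Med16/Spt20-AID replicates 1 or 2.

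Next to the Med16 tag, the gene downstream was lower. YNL234W, which begins 379 bases after MED16 on the same strand and encodes a globin-like protein, was at 90.8, 79.0 and 96.7 CPM in Spt20-AID and at 41.5, 45.3 and 54.1 CPM in Med16/Spt20-AID. Every Med16/Spt20-AID library was below every Spt20-AID library, with a log2 fold change of -0.91 (SE 0.110, adjusted p = 1.99e-06). The Med16/Taf13-AID strain, in which Med16 also carries a degron, was at 94.0, 95.3 and 82.8 CPM in DMSO on a scale shared by 9 libraries, where the means of the other strains were 86.6 CPM in Spt20-AID and 46.9 CPM in Med16/Spt20-AID. That strain carries its other degron on Taf13 rather than Spt20 and was sequenced in another run. On the other side of MED16, YTP1 was higher by 0.51 (adjusted p = 0.00177). Near SPT20, GRE2, which encodes a methylglyoxal reductase and lies 1038 bases from the gene, fell from 4676 ± 128 to 2787 ± 75.3 CPM (SD, n = 3, log2 fold change -0.75, adjusted p = 4.45e-07). Of the other tested genes within 5 kb of MED16, LAP3 and BNI4 were called higher and KEX2 was not called. Near SPT20, CTR9 was called lower, while FRE7, DCP1, PEX11 and PSF3 were not called. Over all tested genes, 50.4% were called, and an effect of the tags on neighbours was not tested.

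Genes for the complexes that carry the tags differed by less than 2-fold. Of 5 genes for Mediator tail subunits, 2 were higher and none was lower, namely GAL11 (Med15) with a log2 fold change of 0.43 (adjusted p = 0.00995) and NUT1 (Med5) with 0.32 (adjusted p = 0.0144). Levels of the strains overlapped for both genes. Without Spt20-AID replicate 1, GAL11 was at 0.26 (adjusted p = 0.0515) and NUT1 at 0.22 (adjusted p = 0.0725). With length and GC trends removed, GAL11 was at 0.20 (adjusted p = 0.0924) and NUT1 at 0.076 (adjusted p = 0.425). Of 20 genes for SAGA subunits, 9 were higher and 1 was lower with a list median of 0.15. The share called in either direction, 50%, was close to that of all genes (50.4%). By direction, 24.8% of all tested genes were higher and 25.7% were lower, a more even split than in this list. The median was 0.054, with 7 higher and 2 lower, once length and GC trends were removed. TAF5, which SAGA shares with TFIID, was the highest at 0.56, followed by SGF73, which anchors the deubiquitinating module (0.52), and NGG1, which encodes Ada3 (0.42). Of 10 genes for TFIID, the other coactivator that delivers TATA-binding protein, 2 were higher and 4 were lower. TAF11 rose by 0.37 and TAF14 fell by 0.30 on the log2 scale. The remaining Mediator list, 19 genes of the core and kinase modules, had 3 higher, 1 lower and a median of 0.00073. Among 7 tested genes of the strain marker list, URA3 was lower with a log2 fold change of -0.24 (adjusted p = 0.0282), TDH3 was lower with -0.77 (adjusted p = 1.35e-06) and GPD1, the gene named in the OsTIR1 promoter, was higher with 0.38 (adjusted p = 0.0006), while ADE2, CAN1, HIS3 and TRP1 did not pass the test.

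The largest increase was that of CTT1. This gene, which encodes cytosolic catalase and lies at chrVII:654634-656322, was at 11.3, 5.47 and 9.01 CPM in Spt20-AID and at 51.3, 57.7 and 49.5 CPM in Med16/Spt20-AID. The strains were far apart, at 8.58 ± 2.92 against 52.8 ± 4.32 CPM (SD, n = 3), a 5.93-fold difference with a log2 fold change of 2.57 (SE 0.168, adjusted p = 2.52e-09). TSL1, which encodes a subunit of the trehalose synthase complex, was at 41.7, 42.4 and 43.8 CPM in Spt20-AID and at 170, 199 and 149 CPM in Med16/Spt20-AID, a 4.05-fold difference (adjusted p = 2.38e-10). SSA4, a stress-inducible Hsp70 chaperone gene, was at 520, 331 and 492 CPM in Spt20-AID and at 1735, 1839 and 1528 CPM in Med16/Spt20-AID. It had the most reads of the 12 largest increases, and the lowest Med16/Spt20-AID library was well above the highest Spt20-AID library (3.79-fold, adjusted p = 2.52e-09).

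Among the other large increases were genes for transporters and regulators. PUT4, the proline permease gene, was at 21.6, 26.3 and 23.1 CPM in Spt20-AID and at 99.0, 114 and 98.8 CPM in Med16/Spt20-AID (4.43-fold, adjusted p = 1.90e-10). OPT2, an oligopeptide transporter gene, was at 9.34, 12.99 and 13.6 CPM in Spt20-AID and at 57.0, 54.1 and 46.9 CPM in Med16/Spt20-AID. Its groups did not overlap and its log2 fold change was 2.14 from sense counts, but 0.79 when both strands were counted together. FMP48 rose from 74.05 ± 20.5 to 365 ± 14.7 CPM (SD, n = 3; 4.87-fold, adjusted p = 2.73e-10). SIP4, which encodes a zinc cluster activator of gluconeogenic genes, rose from 13.5 ± 1.98 to 52.5 ± 8.31 CPM. CIN5, which encodes an AP-1-like factor of the stress response, rose from 85.1 ± 9.44 to 276 ± 15.5 CPM (3.24-fold). GPM2, a relative of the phosphoglycerate mutase gene, and SPI1, a cell wall protein gene, had log2 fold changes of 1.90 and 1.69. For each of these genes, every Med16/Spt20-AID library was above every Spt20-AID library.

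The remaining 2 of the 12 largest increases were Ty gag-pol genes, YDR210C-D (log2 fold change 1.83) and YDR261W-B (1.76). These retrotransposon genes have near-identical copies, and reads that fit several copies were not counted, so their values are uncertain. Of 89 annotated Ty gag or gag-pol genes, 29 had enough counts to be tested, of which 24 were higher and none was lower (median 1.11). Over all tested genes, 24.8% were higher and 25.7% lower. YDR210C-D and YDR261W-B span 5269 and 5314 bases, and of 1832 genes in the longest tertile 745 were higher and 297 lower. The Ty list was not summarized with length trends removed, and some members averaged as few as 10 counts. The Ty list was drawn up after these values had been seen. Their summed level was 276 to 469 CPM in Spt20-AID and 689 to 774 CPM in Med16/Spt20-AID, without overlap.

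**Figure D2:**
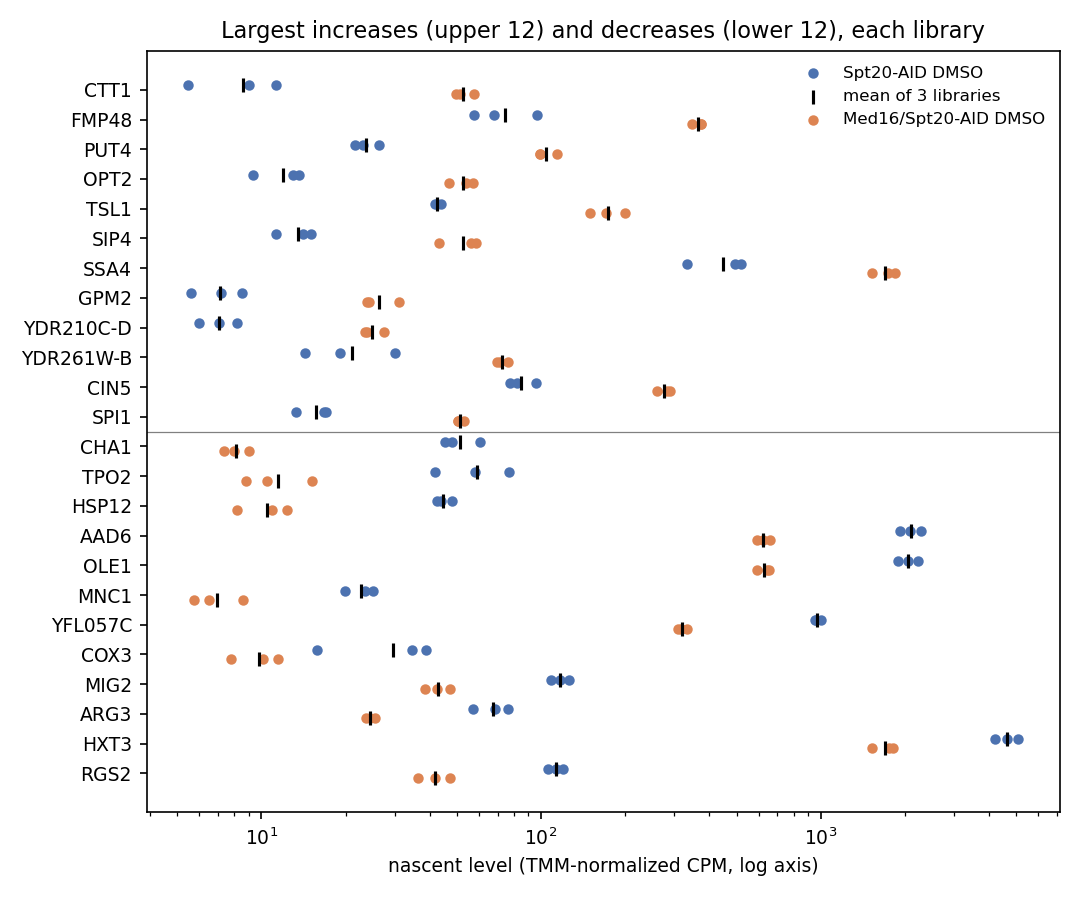
Level of the 12 largest increases (upper rows) and 12 largest decreases (lower rows) in each DMSO library, in TMM-normalized CPM on a log axis, with 3 points per strain and a bar at each mean. The 2 strains did not overlap for any of the 24 genes, from CTT1 with 5.47 to 11.3 against 49.5 to 57.7 to RGS2 with 106 to 120 against 36.2 to 47.2.

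The largest decrease was that of CHA1. This gene, which encodes the catabolic serine and threonine deaminase, was at 48.1, 60.5 and 45.3 CPM in Spt20-AID and at 9.06, 7.996 and 7.35 CPM in Med16/Spt20-AID. The strains differed 6.29-fold without overlap (log2 fold change -2.65, SE 0.156, adjusted p = 8.07e-10). OLE1, the gene of the fatty acid desaturase, was at 1889, 2231 and 2044 CPM in Spt20-AID and at 642, 594 and 652 CPM in Med16/Spt20-AID, a 3.26-fold difference (adjusted p = 1.02e-10). HXT3, which encodes a low-affinity glucose transporter, was at 5084, 4197 and 4640 CPM in Spt20-AID and at 1530, 1807 and 1754 CPM in Med16/Spt20-AID. It had the most reads of the 12 largest decreases and differed 2.73-fold (adjusted p = 2.06e-09). MIG2, a glucose-induced repressor gene, fell from 117 ± 8.27 to 42.7 ± 4.24 CPM (SD, n = 3; adjusted p = 3.45e-09).

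HSP12 was the lowest of 25 general stress genes, of which 18 were higher. This gene of a small membrane-associated heat shock protein was at 42.4, 47.9 and 43.8 CPM in Spt20-AID and at 12.4, 8.19 and 10.9 CPM in Med16/Spt20-AID. It was 4.26-fold lower without overlap (log2 fold change -2.09, adjusted p = 5.97e-09). TPO2, a polyamine exporter gene, was at 41.9, 76.6 and 58.0 CPM in Spt20-AID and at 8.84, 10.5 and 15.2 CPM in Med16/Spt20-AID, with a log2 fold change of -2.29 from sense counts and -1.46 from both strands. ARG3, the ornithine carbamoyltransferase gene, fell from 67.3 ± 9.56 to 24.5 ± 0.914 CPM. RGS2, a regulator of G protein signaling, fell from 113 ± 6.75 to 41.8 ± 5.47 CPM. AAD6, annotated as a pseudogene and named for a putative aryl-alcohol dehydrogenase, fell from 2097 ± 176 to 624 ± 31.3 CPM. YFL057C, which has no entry in the annotation used here, fell from 973 ± 22.9 to 319 ± 12.3 CPM. Whether YFL057C is a locus separate from AAD6 could therefore not be checked. AAD6 belongs to a multigene family, so its counts may be incomplete. MNC1 was at 25.1, 19.8 and 23.4 CPM in Spt20-AID and at 5.75, 6.47 and 8.58 CPM in Med16/Spt20-AID. These 12 decreases remained below 0 under spike-in scaling, from -0.44 for RGS2 to -1.67 for CHA1.

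Growth-related genes were lower together. All 56 tested genes for proteins of the small ribosomal subunit were lower and none was higher, with a median log2 fold change of -0.61 beside 0.014 over all 5621 genes. RPS8A was at 367, 354 and 344 CPM in Spt20-AID and at 188, 188 and 198 CPM in Med16/Spt20-AID (log2 fold change -0.89, adjusted p = 4.55e-08). RPS12 had the lowest value of the list, at 860 ± 124 against 404 ± 27.4 CPM (SD, n = 3; log2 fold change -1.09). The summed level of the list was 22445 to 26525 CPM in Spt20-AID and 14382 to 16442 CPM in Med16/Spt20-AID. Ribosomal protein genes are short and many have near-identical copies. With length and GC trends removed, 55 of the 56 were still called lower.

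Ribosome biogenesis genes, which act in making and maturing ribosomal RNA, behaved alike, with 55 of 56 lower and a median of -0.69. DBP2, which encodes an RNA helicase, was at 653, 602 and 548 CPM in Spt20-AID and at 252, 234 and 218 CPM in Med16/Spt20-AID. Its log2 fold change of -1.36 (adjusted p = 2.03e-09) was the lowest of the list and the groups were far apart. ARX1, which encodes an export factor of the large subunit, was at 579, 525 and 591 CPM in Spt20-AID and at 265, 266 and 272 CPM in Med16/Spt20-AID. NOP1, the gene of the box C/D methyltransferase, was the 1 member that did not pass, at -0.19 (adjusted p = 0.0503). By the spike-in, the list medians were 0.37 for the small subunit genes and 0.31 for the biogenesis genes, against 1.01 for all genes. Of 33 proteasome genes, 27 were lower and none was higher with a median of -0.28, a count that went to 17 without Med16/Spt20-AID replicate 2. PRE3 and RPT5 fell by 0.47 and 0.45 on the log2 scale. Of 10 histone genes, 8 were lower and none was higher, with HTA1 at -1.03 and HTA2 at -0.79.

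Chaperone and general stress genes were mostly higher. Of 22 chaperone genes under the heat shock factor Hsf1, 15 were higher and 2 were lower with a median of 0.37. After SSA4, the highest values were those of HSP26 (1.54), HSP42 (1.28) and HSP78 (1.12). HSP78, a mitochondrial disaggregase gene, was at 619, 545 and 631 CPM in Spt20-AID and at 1253, 1356 and 1282 CPM in Med16/Spt20-AID. SSA2, a constitutive Hsp70 gene, was lower with a log2 fold change of -0.48 (adjusted p = 0.0004). The general stress list of Msn2 and Msn4 was written from general knowledge, and binding by these factors was not tested. Of its 25 genes, 18 were higher and 3 were lower with a median of 0.67. The 3 were HSP12, YGP1 (-0.66) and DDR2 (-0.88 at a mean count of 21.5, a call lost when any of 3 of the libraries was left out, with values of -0.56 to -0.91). HSP30, a plasma membrane heat shock gene, was at 276, 333 and 341 CPM in Spt20-AID and at 765, 775 and 827 CPM in Med16/Spt20-AID.

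Genes of reserve carbon moved in the opposite direction to those of glycolysis. Of 18 trehalose and glycogen genes, 16 were higher and none was lower with a median of 0.69. GSY1, a glycogen synthase gene, was at 15.3, 10.9 and 9.50 CPM in Spt20-AID and at 35.8, 35.2 and 32.8 CPM in Med16/Spt20-AID (log2 fold change 1.52, adjusted p = 5.37e-07). GDB1, the debranching enzyme gene, rose by 1.27 and PGM2, the phosphoglucomutase gene, by 1.03. Of 19 tested genes of glycolysis and fermentation, 15 were lower and 2 were higher with a median of -0.50. PDC1, the main pyruvate decarboxylase gene, was at 4007, 4118 and 3052 CPM in Spt20-AID and at 1486, 1668 and 1806 CPM in Med16/Spt20-AID (log2 fold change -1.17, adjusted p = 8.96e-08). TDH3, a glyceraldehyde-3-phosphate dehydrogenase gene, fell from 7522 ± 627 to 4420 ± 318 CPM (SD, n = 3). The 2 higher members encode glucose-phosphorylating enzymes, with HXK1 at 1.07 and GLK1 at 0.92.

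Hexose transporter genes and their regulators were near the background of 24.8% higher and 25.7% lower, with 5 higher and 5 lower of 18. HXT3 and MIG2 were the lowest. The high-affinity transporter genes HXT6 (2.01 at a mean count of 34.5) and HXT7 (1.34) were the highest, but they are near-identical and their counts are uncertain. The count of lower genes went to 3 when Spt20-AID replicate 1 or Med16/Spt20-AID replicate 1 or 3 was left out. In the tricarboxylic acid and glyoxylate cycles, 9 of 24 genes were lower and 4 were higher. The share called, 54.2%, was close to the 50.4% over all tested genes. CIT2, the peroxisomal citrate synthase gene, was at 1727, 1691 and 1981 CPM in Spt20-AID and at 769, 690 and 681 CPM in Med16/Spt20-AID (log2 fold change -1.34, adjusted p = 2.18e-09). ACO1 and IDH1, the genes of the next enzymes on the way to 2-oxoglutarate, were at -1.11 and -1.10. Of 34 nuclear genes of the respiratory chain, 19 were lower and 3 were higher. NDE1 was at -0.88, and CYC7, an isoform of cytochrome c induced at low oxygen, was at 1.62. Of 8 galactose genes, 5 were higher and none was lower, from low levels, with GAL7 at 1.20, 1.37 and 2.19 CPM in Spt20-AID and at 5.97, 4.95 and 4.29 CPM in Med16/Spt20-AID.

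Counts of nutrient genes are set beside the background of 24.8% higher and 25.7% lower over all tested genes. Of 26 nitrogen and amino acid permease genes, 13 were lower and 3 were higher with a median of -0.31. MEP2, an ammonium transporter gene, was at 100.6, 90.6 and 85.97 CPM in Spt20-AID and at 37.1, 33.7 and 36.2 CPM in Med16/Spt20-AID, and AGP1, a broad amino acid permease gene, fell from 470 ± 19.96 to 209 ± 15.6 CPM. PUT4 stood at the other end of that list. Of 26 genes of methionine synthesis and sulfur assimilation, 14 were higher and 6 were lower, the lower count being near the background. SUL2, a sulfate permease gene, was at 112, 89.9 and 138 CPM in Spt20-AID and at 333, 370 and 347 CPM in Med16/Spt20-AID (log2 fold change 1.61, adjusted p = 4.38e-09), and MET28, a regulator of the pathway, was at 1.25.

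Of 26 iron regulon genes, 15 were higher and 4 were lower, beside 24.8% higher and 25.7% lower over all tested genes. FRE4, a ferric reductase gene, rose from 60.1 ± 9.02 to 175 ± 3.29 CPM (SD, n = 3), whereas FTR1, the high-affinity iron permease gene, fell from 335 ± 59.5 to 215 ± 5.32 CPM. Of 14 tested phosphate genes, 3 were lower and 2 were higher, a share called of 35.7% beside 50.4% over all tested genes. PHO84, the phosphate transporter gene, had a log2 fold change of -2.64 from sense counts at a mean count of 28.3 but of -0.25 from both strands. Another annotated gene overlaps it on the opposite strand, where counts averaged 238. The value from both strands therefore reflects mostly antisense reads, and the sense value rests on few counts and is uncertain. Of 26 ergosterol genes, 17 were lower and 3 were higher with a median of -0.36, and ERG3 was the lowest at -1.16. Biosynthetic genes of other amino acids were near the background, with 10 higher and 8 lower of 44. In the arginine and lysine list, 8 of 16 were lower and 5 were higher, with ARG3 and LYS20 (-0.86) the lowest.

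**Figure D3:**
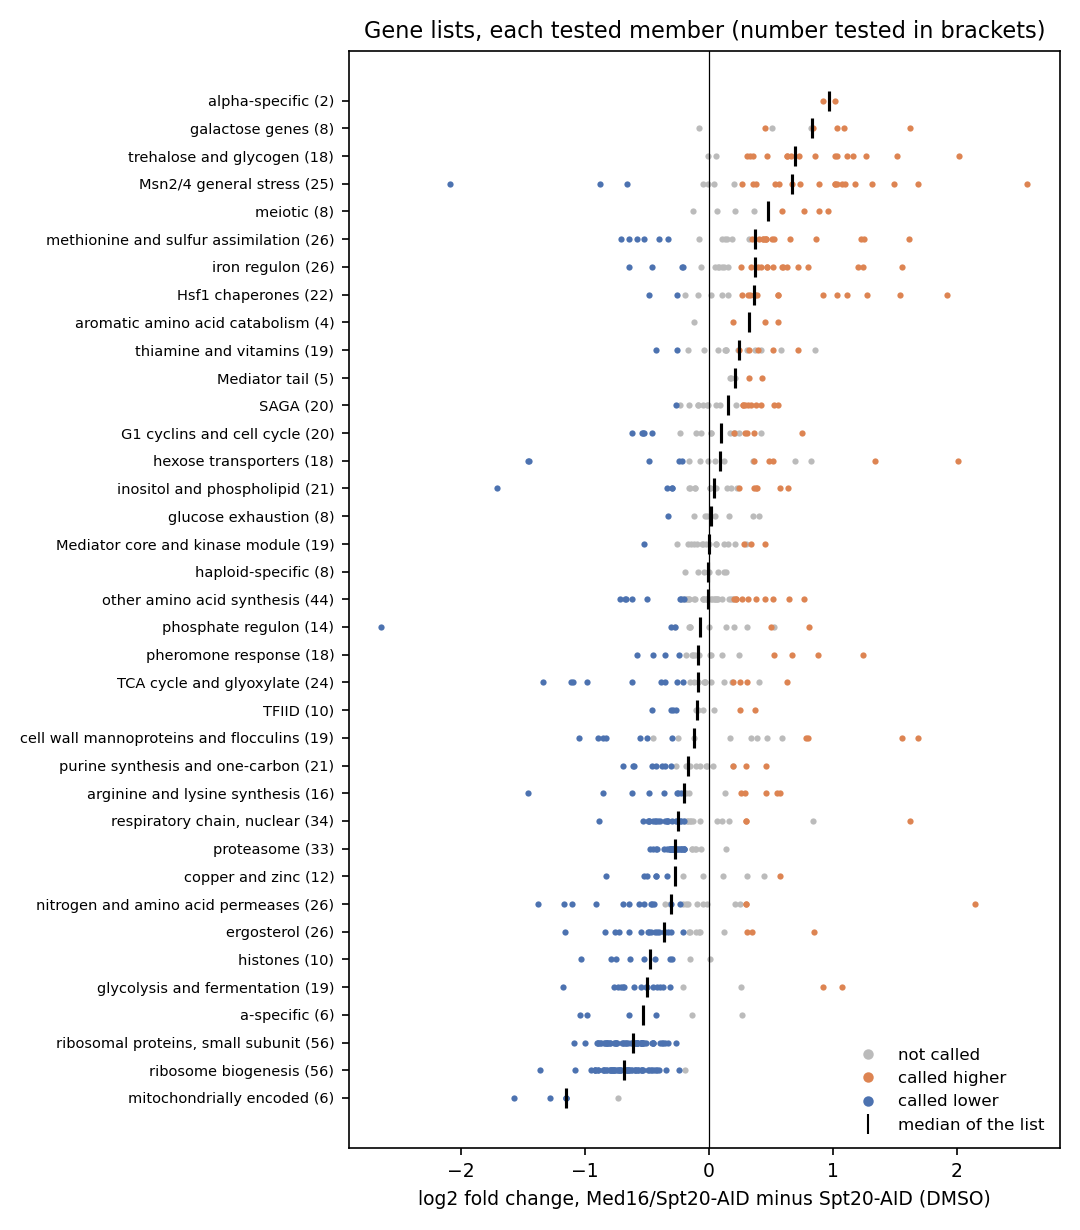
Log2 fold change between Med16/Spt20-AID and Spt20-AID in DMSO (x axis, relative to the median gene) of every tested member of 37 gene lists (rows), ordered by the list median, which a bar marks. The 56 small subunit ribosomal protein genes and the 56 ribosome biogenesis genes lie left of 0, and 16 of 18 trehalose and glycogen genes were called higher.

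Of 19 tested genes for cell wall mannoproteins and flocculins, 7 were lower and 4 were higher with a median of -0.12, not far from the background of 25.7% and 24.8%. CCW12, a major cell wall mannoprotein gene, was at -1.05, and FLO11, the flocculin gene, was at 2.16, 3.42 and 1.22 CPM in Spt20-AID and at 6.41, 6.66 and 6.13 CPM in Med16/Spt20-AID. Both strains carried the markers of MATa cells. Of 6 tested a-specific genes, 4 were lower and none was higher, and MFA2, an a-factor gene, was at 499, 464 and 415 CPM in Spt20-AID and at 236, 227 and 210 CPM in Med16/Spt20-AID. The alpha-specific genes SAG1 and STE3 were at 15.03 ± 4.85 and 7.78 ± 1.14 CPM in Spt20-AID. In Med16/Spt20-AID they were at 29.4 ± 2.17 and 14.8 ± 0.505 CPM, and both were called higher. For SAG1, the log2 fold change was 1.02 from sense counts but 0.43 from both strands. For STE3, it was 0.92 and 0.94. Counts of the other 2 alpha-specific genes were under the minimum. None of 8 haploid-specific genes passed the test, and 4 of 8 meiotic genes were higher from low levels, with HOP1 at 0.89 and SPS1 at 0.96.

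Genes of the mitochondrial genome were lower relative to the median gene. Of 14 tested, 10 were lower and none was higher, with a median of -1.06. By the spike-in, their median was -0.10, against 1.01 for all genes. COX3, which encodes a cytochrome c oxidase subunit, was at 34.5, 38.6 and 15.8 CPM in Spt20-AID and at 11.49, 7.81 and 10.1 CPM in Med16/Spt20-AID. COX2 was at 42.4, 53.0 and 28.2 CPM in Spt20-AID and at 17.9, 12.95 and 18.99 CPM in Med16/Spt20-AID. Spt20-AID replicate 3 lay closest to the other strain for both genes. The medians of the 16 nuclear chromosomes spanned only -0.044 (chromosome XIV) to 0.14 (chromosome I), so no whole nuclear chromosome stood apart.

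Promoters were read from R64, 250 bases before to 50 bases after each start codon, for 5502 of the tested genes, and searched for 12 motifs. The 3 motifs described were chosen after the shares had been seen. AGGGG on either strand, the core site of Msn2 and Msn4, was in 21.8% of all tested promoters, in 30.1% of those called higher (95% Wilson interval 27.7 to 32.5) and in 16.1% of those called lower (14.3 to 18.1). GATGAG on either strand, the core of the PAC element of ribosome biogenesis genes, was in 20.2% of all, in 13.7% of those called higher (12.02 to 15.6) and in 31.9% of those called lower (29.5 to 34.3). The TATA consensus, as any of TATAAAAA, TATAAAAG, TATAAATA, TATAAATG, TATATAAA, TATATAAG, TATATATA and TATATATG on the strand of the gene, was in 26.97% of all, in 27.2% of those called higher and in 28.8% of those called lower. Among changes of at least 2-fold, the TATA share was 42.4% of 139 promoters in the higher direction (34.5 to 50.8) and 70.5% of 61 in the lower direction (58.1 to 80.4). The intervals cover counting error only.

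Windows of 150 bases from 4 of these promoters show the motifs in genes that moved in different directions. Capitals mark AGGGG or its complement CCCCT in TSL1 and HSP12, GATGAG in ARX1 and the TATA word in HXT3, and each window is given 5′ to 3′ on the strand of the gene with its R64 position.
TSL1, chrXIII:70374-70523, plus strand: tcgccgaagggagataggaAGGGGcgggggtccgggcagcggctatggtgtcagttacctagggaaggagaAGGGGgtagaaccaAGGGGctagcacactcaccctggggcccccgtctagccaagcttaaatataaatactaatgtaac
HSP12, chrVI:107006-107155, plus strand: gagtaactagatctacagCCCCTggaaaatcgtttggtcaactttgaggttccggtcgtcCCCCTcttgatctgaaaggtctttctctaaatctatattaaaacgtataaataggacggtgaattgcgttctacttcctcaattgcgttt
ARX1, chrIV:657537-657686, minus strand: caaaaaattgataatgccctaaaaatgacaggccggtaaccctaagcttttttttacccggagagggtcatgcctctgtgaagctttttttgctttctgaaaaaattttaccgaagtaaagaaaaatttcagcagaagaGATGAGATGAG
HXT3, chrIV:1164761-1164910, minus strand: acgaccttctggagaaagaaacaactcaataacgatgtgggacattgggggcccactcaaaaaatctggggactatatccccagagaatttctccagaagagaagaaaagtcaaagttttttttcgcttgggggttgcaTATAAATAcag
TSL1, with 3 AGGGG sites 231, 179 and 165 bases before its start codon, was 4.05-fold higher, whereas HSP12, with 2 such sites 232 and 190 bases before its start codon, was 4.26-fold lower. The same core was thus present in genes called in opposite directions. ARX1 has 2 overlapping GATGAG words 80 and 75 bases before its start codon, and HXT3 has 1 TATA word 111 bases before its start codon. A match describes the letters only.

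**Figure D4:**
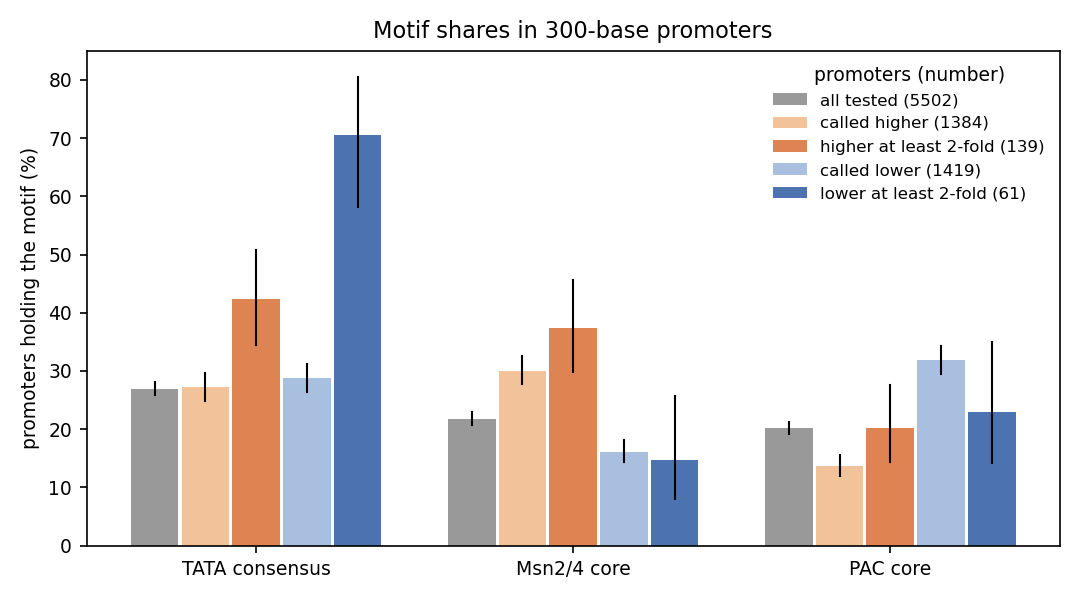
Share of promoters (y axis, percent) that hold a TATA consensus, the Msn2/4 core or the PAC core (x axis), for all 5502 tested promoters and for those called higher or lower, with and without a 2-fold minimum. Lines are 95% Wilson intervals, and the TATA share is 70.5% among the 61 promoters at least 2-fold lower against 26.97% of all.

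Antisense counts also differed. Among 2269 genes that averaged 10 or more antisense counts, 281 were higher in Med16/Spt20-AID (12.4%) and 304 were lower (13.4%). Antisense reads were 6.29 to 6.63% of stranded gene reads in Spt20-AID and 5.64 to 5.81% in Med16/Spt20-AID, without overlap. Antisense to DUR12, the urea amidolyase gene, was at 5.27, 4.45 and 5.601 CPM in Spt20-AID and at 19.2, 17.3 and 17.8 CPM in Med16/Spt20-AID (log2 fold change 1.80, adjusted p = 6.06e-10), while its sense counts rose by 0.53. Antisense to VPS62 rose by 1.59 with a sense change of -0.0078. Antisense to DIP5, a dicarboxylic amino acid permease gene, was at 20.6, 20.5 and 19.7 CPM in Spt20-AID and at 9.50, 6.85 and 8.27 CPM in Med16/Spt20-AID, and its sense counts fell by 0.64. Sense counts of the same gene were tested for 196 of the 281 genes with higher antisense, of which 57 (29.1%) were higher and 34 (17.3%) lower in sense. They were tested for 154 of the 304 with lower antisense, of which 38 (24.7%) were higher and 29 (18.8%) lower in sense. Over the 1730 genes tested on both strands, the shares were 26.8% and 19.1%. DUR12, VPS62 and DIP5 were among the 5 largest antisense changes in each direction at a mean of 50 antisense counts or more. The other 7 of those 10 were on identifiers that the annotation used here does not hold, so overlap with neighbouring genes could not be checked.

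The same strains were also compared after 0.5 mM 3-IAA, from the same cultures. There, Spt20 carries a degron in both strains but Med16 only in Med16/Spt20-AID, so the strains also differ in Med16 depletion. In that comparison, 1259 of 5627 genes were higher in Med16/Spt20-AID (22.4%) and 1297 were lower (23.0%). Of the genes tested in both, 811 were called higher in each, which was 58.5% of the calls in DMSO and 65.1% of those in 3-IAA, and 921 were called lower in each (64.003% and 71.01%). The 12 largest decreases in DMSO were all called lower in 3-IAA, with CHA1 at -2.65 in both and OLE1 at -1.71 and -1.69. Of the 12 largest increases, 11 were called higher. SSA4 was not, and was at 2044, 1574 and 1120 CPM in Spt20-AID and at 1628, 1605 and 1464 CPM in Med16/Spt20-AID after 3-IAA, with overlapping groups and a log2 fold change of -0.012. By a test of the interaction, the strain difference itself differed between 3-IAA and DMSO for 1493 of 5621 genes (26.6%). In the small subunit ribosomal protein list, 37 of 56 genes were lower after 3-IAA with a median of -0.24, and in the Hsf1 list 1 was higher and 14 were lower.

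**Figure D5:**
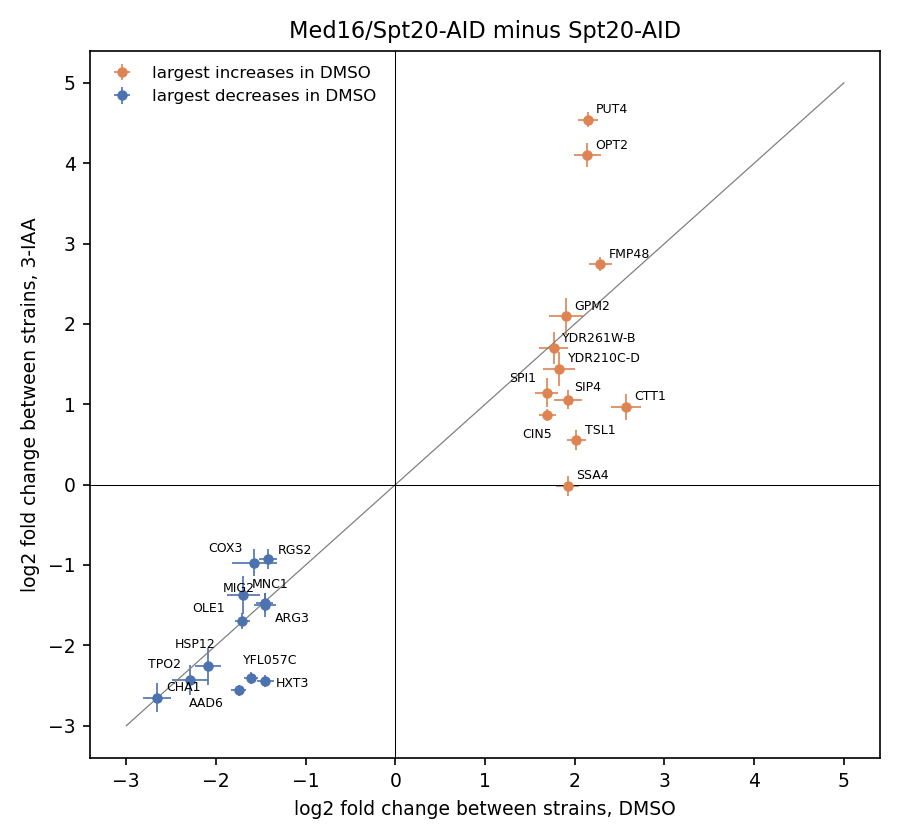
Log2 fold change between Med16/Spt20-AID and Spt20-AID in DMSO (x axis) and in 3-IAA (y axis) for the 24 genes with the largest changes in DMSO, with bars of 1 SE and a line of equal values. The 12 decreases lie below 0 in both, and SSA4 is at 1.92 in DMSO and -0.012 in 3-IAA.

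The untreated Med16/Taf13-AID strain was set beside these values as a description. It shares the degron on Med16 but, by its label, carries the other degron on Taf13 and not on Spt20. It was also sequenced in another run. On the scale shared by the 9 DMSO libraries, 9 of the 12 increases and 6 of the 12 decreases were closer in log2 to Med16/Spt20-AID than to Spt20-AID. The same share over all tested genes was not computed, so these counts have no background. OLE1 was at 592, 662 and 724 CPM in Med16/Taf13-AID, near the Med16/Spt20-AID mean of 629 and under the Spt20-AID mean of 2003. CHA1 was at 3.70, 6.59 and 3.58 CPM and HXT3 at 1693, 2233 and 1655 CPM, also on the side of Med16/Spt20-AID. SIP4 was at 11.1, 15.8 and 15.3 CPM and HSP12 at 69.2, 29.4 and 54.7 CPM, on the side of Spt20-AID. COX3 was at 117, 120 and 106 CPM, above both other strains.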

How the data were processed

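nsRNA-seq libraries of Med16/Spt20-AID and Spt20-AID treated with DMSO were compared, with 3 biological replicates of each strain. Per the submitters' processing notes, the authors aligned reads with STAR 2.6.1a to sacCer3. They deposited raw read counts of 6692 genes per library, for both strands and for each strand, without normalization. Reads that name no gene, which include multimapping and unmapped reads, were 69.4 to 76.4% of a library and were left out. The annotation behind the counts is not given in the sources used here. Names, positions and promoters come from RefSeq R64, the same assembly as sacCer3, which held 6008 of the identifiers.

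Sense counts of genes averaging 10 or more counts were fitted in edgeR 4.0.16 (R 4.3.3) with TMM scaling and its quasi-likelihood test, and p-values were adjusted by Benjamini-Hochberg over all tested genes at 0.05. TMM was used in place of the study's spike-in because the spike-in moves nearly all genes together. Its size factors were obtained by a least squares fit to the mean normalized counts in a supplementary table of the study, with a median relative error of 6.88e-05%. The p-values measure the spread between these libraries only. Named genes were the 12 with the largest increase and the 12 with the largest decrease that averaged 50 counts or more, the tagged genes with neighbours within 5 kb, strain markers, and the members with the smallest adjusted p of each of 38 gene lists, and further members were named after their values were seen. A further gene list is not reported here. The comparison, its members and the lists were chosen with earlier results of these data known. Same-numbered replicates of the strains did not deviate together (correlations of 0.111, 0.0203 and -0.244 over 5223 genes), so the main fit had no block. The interaction with 3-IAA was fitted with each culture as a block. Alternatives included DESeq2 1.42.0, other scalings and filters, length and GC trends removed, and each library left out. The test was tried on simulated counts first. Summaries and promoter searches used Python 3.11.15.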

Additional observations from a re-analysis of the deposited data

Results flagged for a closer look

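For 12 of the 24 genes with the largest changes in DMSO, the difference between the strains was not the same in 3-IAA, by a test of the interaction (edgeR, adjusted p under 0.05, culture as a block). Over all genes, 1493 of 5621 passed this test (26.6%), and 898 did without the block. The strain difference was larger in 3-IAA by a log2 value of 2.39 for PUT4 (adjusted p = 1.66e-11), 1.94 for OPT2 (1.03e-06) and 0.43 for FMP48 (0.0287), which did not pass without the block (0.0871). It was smaller in 3-IAA for CTT1 (-1.61, adjusted p = 2.52e-05), TSL1 (-1.48, 2.25e-08), SIP4 (-0.89, 0.000347), SSA4 (-1.93, 2.74e-10) and CIN5 (-0.85, 1.76e-07). Among the decreases, it was further below 0 in 3-IAA for AAD6 (-0.83, 2.57e-07), YFL057C (-0.82, 1.36e-07) and HXT3 (-1.01, 1.35e-08), and closer to 0 for RGS2 (0.50, 0.00474). The DMSO libraries that chose these genes also enter the interaction. With 3-IAA, the strains also differ in the depletion of Med16, so the interaction includes that added loss.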

How the results depend on the processing

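Of 89 genes named with values from the sense comparison, 81 kept their direction and call in each alternative that gave them a value, other than spike-in scaling. Values were obtained for 83 of them at a minimum mean count of 50 and for 87 in the counts of both strands. The exceptions were SPT20, GAL11, NUT1, URA3, DDR2, NOP1, VPS62 and SIN4 (MED16). The log2 fold change of SIN4 turned to -0.047 with length and GC trends removed and to -0.050 with the replicate block as well. That of VPS62, which was near 0 and not called, turned to 0.18 from both strands, and leaving out 1 library gave -0.045 to 0.042. Spike-in scaling gave 5268 called genes (5251 higher, 17 lower), in antisense 1747 (1742 and 5) and in 3-IAA 5425 (5359 and 66). This scaling put the median log2 fold changes at 1.01, 1.02 and 0.91. It turned 18 values below 0 positive, namely YNL234W 0.076, GRE2 0.24, TAF14 0.68, URA3 0.76, TDH3 0.21, SSA2 0.50, DDR2 0.10, YGP1 0.33, RPS8A 0.097, NOP1 0.80, HTA2 0.19, PRE3 0.52, RPT5 0.53, NDE1 0.10, FTR1 0.34, LYS20 0.13, DIP5 0.35 and VPS62 0.99.

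A minimum of 2-fold left 216 sense calls (142 higher, 74 lower) and 188 antisense calls (118 and 70). Antisense calls numbered 345 with DESeq2 (149 and 196) and 321 (127 and 194) when the minimum mean count was 50, where fewer genes were tested. The same 2-fold minimum took the TATA share from 28.8 to 70.5% in the lower direction and from 27.2 to 42.4% in the higher direction, the AGGGG share of higher promoters from 30.1 to 37.4%, and the GATGAG share from 13.7 to 20.1% (higher) and from 31.9 to 22.95% (lower). The cause was not tested.

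With 1 library left out, 2309 to 2881 sense calls (1101 to 1405 higher, 1208 to 1476 lower), 406 to 557 antisense calls (190 to 258 and 216 to 306), 2016 to 2455 calls in 3-IAA (982 to 1222 and 1034 to 1233) and a median spike-in shift of 0.92 to 1.08 were obtained. With the replicate number as a block, which does not pair the strains here, 2764 sense calls were made (1373 higher, 1391 lower), and not every library correlated best with its own number. The interaction of OLE1, which was not called, was 0.011 with the culture block and -0.0063 without it. Genes under about 50 counts, such as DDR2 and HXT6, are limited by depth.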
